A study of Drosophila melanogaster with 6 samples.

Results

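The vacuolar H+-ATPase (V-ATPase) is described here through the genes whose FlyBase symbol begins with Vha. Of 17562 rows in the count table, 32 carried such a symbol, out of 33 Vha symbols in the names table used. The remaining one, Vha44, which encodes subunit C, is not analysed here. RNA-seq had been carried out on whole Drosophila melanogaster larvae at the wandering stage, the last stage before the puparium forms, to ask which transcripts depend on Cdk8. CDK8 phosphorylates proteins as part of the Mediator complex, which connects transcription factors with RNA polymerase II. The mutant libraries were 3 pools of larvae homozygous for cdk8K185, a null allele on an FRT80B chromosome that also removes part of the neighbouring gene I-2. The study's methods describe its cdk8K185 stock as outcrossed to w1118 and kept over a Tb balancer by which homozygotes are picked, and homozygotes as living on maternal CDK8. That these pools came from that outcrossed stock is not stated in the labels. The control libraries were 3 pools of w1118 larvae, and each pool of either genotype held 10 larvae. The sex of the larvae is not given, nor whether the pools came from separate cultures, so p-values measure the spread between these samples. In whole larvae, fewer cells of a type and less RNA per cell cannot be told apart.

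The V-ATPase is a rotary pump. Its cytoplasmic V1 sector hydrolyses ATP and turns a stalk, which drives a ring of proteolipids in the membrane-bound V0 sector and carries protons across the membrane. The pump acidifies lysosomes, endosomes and synaptic vesicles in all cells that have them, and in insects it sits in the apical membrane of epithelia such as the Malpighian tubule, where it energises fluid secretion, and in the copper cells of the midgut, which secrete acid. Many fly subunits are encoded by several paralogs. By subunit, the members comprised 12 V1 genes, 18 V0 genes and 2 genes for the accessory subunit Ac45.

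Libraries held 9208564 to 11724703 counts. Levels are given as CPM, the counts of a gene scaled to a common library total, on TMM-scaled library sizes, and 3 counts were worth 0.253 to 0.323 CPM. Cdk8 itself gave 4.73, 6.46 and 7.22 CPM in the cdk8K185 libraries and 10.1, 9.53 and 8.83 CPM in the w1118 libraries, with a log2 fold change of -0.63 (SE 0.19, adjusted p = 0.0344). Reads on Cdk8 thus remained in the libraries labelled cdk8K185, though the allele is described as null, and which part of the gene they cover cannot be read from gene counts. I-2, which the deletion also enters, gave 5.41, 5.58 and 5.16 CPM in cdk8K185 libraries and 27.2, 34.6 and 32.6 CPM in w1118 libraries (log2 fold change -2.55, adjusted p = 4.55e-05). Differences were tested with edgeR's quasi-likelihood test, adjusted by Benjamini-Hochberg over the 10632 genes that passed its filter on low counts, and a gene was called at an adjusted p under 0.05. A log2 fold change is cdk8K185 over w1118. The difference between the genotypes was broad, with 19.9% of genes tested called higher and 17.0% called lower in cdk8K185.

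Among the pump genes of cdk8K185 larvae, 1 stood out and most were not called. Of 24 members tested, 4 were called higher and 1 lower (20.8%, against 36.9% of all genes tested), and 8 had an unadjusted p under 0.05. At least the 36.9% of all genes that were called had an unadjusted p that low too, so the 8 are no added support. Vha100-5, a paralog of the V0 subunit a, was higher by a log2 fold change of 1.89. The other called members were Vha68-2, VhaSFD and VhaAC39-1, higher by 0.38 to 0.43 on the log2 scale, and Vha68-1, with a log2 fold change of -0.30. When library totals replaced the TMM factors, all genes shifted by a median of 0.22 on the log2 scale. The calls were then 8 higher and 0 lower among the members, beside 3452 higher and 1203 lower among all genes (74.2% of calls higher, against 53.9% with TMM).

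Members fell into abundance classes by their mean over all 6 libraries. The 19 members at 10 CPM or more, called abundant here, were all tested, 6 lay between 1 and 10 CPM, and 7 lay under 1 CPM. At the lower edge of the abundant class, VhaAC45RP averaged 10.8 CPM and stood just inside, while Vha36-3 averaged 6.66 CPM and stood just outside. At 1 CPM, Vha16-5 at 1.11 CPM stood just inside and Vha14-2 at 0.943 CPM just outside. The abundant class held at least 1 gene for each of the subunits A, B, D, E, F, G and H of V1, for a, c, c'', d and e of V0, and for Ac45.

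**Figure D1:**
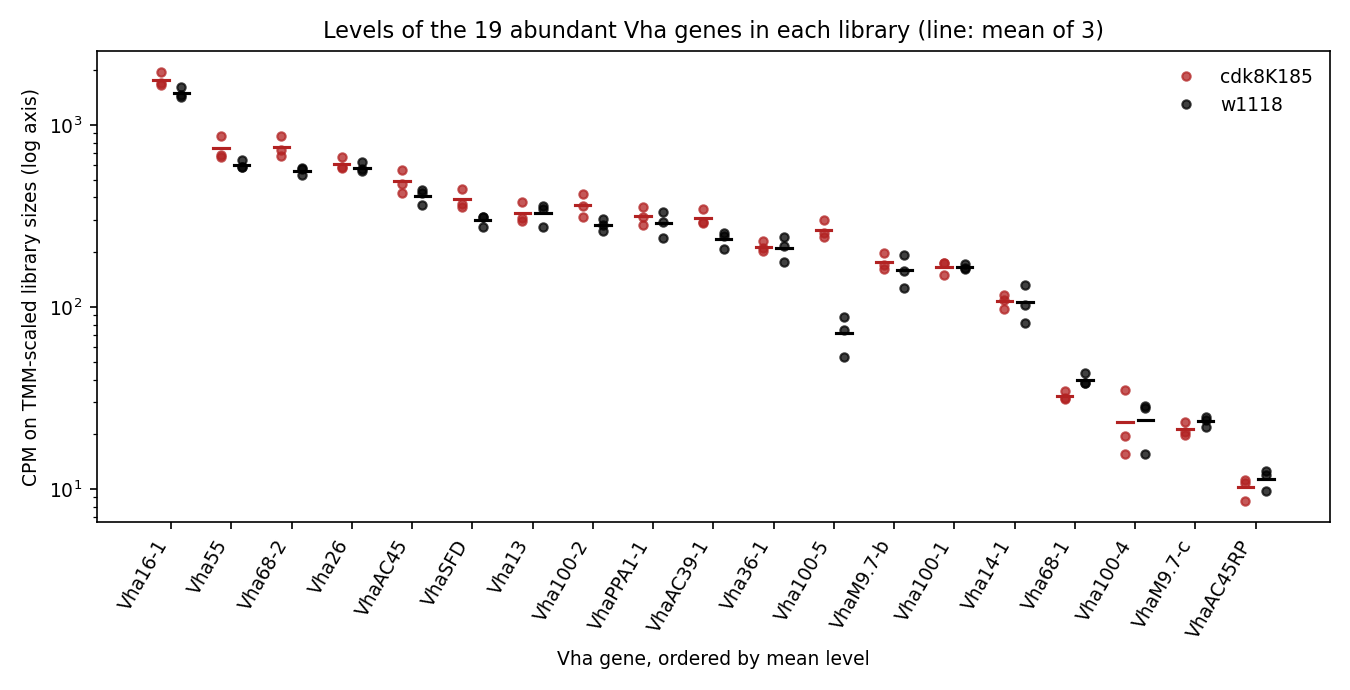
Level of each of the 19 abundant members in every library, in CPM on TMM-scaled library sizes (log axis), with cdk8K185 libraries left of w1118 libraries and a line at each mean. Points of the genotypes lie close together for most genes and stand apart for Vha100-5, at 242 to 301 CPM in cdk8K185 larvae and 53.1 to 88.7 CPM in w1118 larvae.

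To compare levels between genes, CPM were divided by the length of annotated exon in kilobases (kb). The proteolipid gene Vha16-1 led in both genotypes, at 575 ± 52.3 CPM per kb in cdk8K185 larvae and 488 ± 31.7 CPM per kb in w1118 larvae (SD, n = 3 each). Subunit c makes up most of the proton ring and is present in several copies per pump. The main genes for subunits A, B, D, E, F and G lay between 164 and 349 CPM per kb in cdk8K185 larvae and between 161 and 346 CPM per kb in w1118 larvae. Among the subunit a genes, Vha100-2 had the highest level in both genotypes, at 113 CPM per kb in cdk8K185 larvae and 88.0 CPM per kb in w1118 larvae. In w1118 larvae Vha100-1 was next at 50.4 CPM per kb and Vha100-5 followed at 24.7 ± 6.15 CPM per kb. In cdk8K185 larvae that order was turned round, with Vha100-5 at 91.4 ± 10.5 CPM per kb and Vha100-1 at 50.5 CPM per kb. The abundant genes with the lowest levels per kb were Vha68-1, Vha100-4 and VhaAC45RP, at 6.1 to 12.2 CPM per kb in cdk8K185 larvae and 6.82 to 14.9 CPM per kb in w1118 larvae.

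In the V1 sector, subunits A and B alternate in the head that binds and hydrolyses ATP, with the catalytic sites on A. Vha68-2 (2L:12974322-12978607, plus strand, 8 exon blocks), the main subunit A gene in these larvae, gave 873, 674 and 729 CPM in cdk8K185 libraries and 534, 579.9 and 571 CPM in w1118 libraries. Every mutant library lay above every control library, and the means were 758 ± 103 CPM and 562 ± 24.5 CPM (log2 fold change 0.43, SE 0.13, adjusted p = 0.0353). Vha68-1 (2L:13000770-13004107, minus strand, 5 exon blocks), a minor subunit A gene, gave 34.6, 31.3 and 31.6 CPM in cdk8K185 libraries and 38.4, 43.3 and 38.3 CPM in w1118 libraries. All 3 mutant libraries lay below the controls, at means of 32.5 ± 1.83 CPM and 40.0 ± 2.83 CPM (log2 fold change -0.30, SE 0.09, adjusted p = 0.0422). With library totals its log2 fold change was -0.08 (adjusted p = 0.547). Of the summed CPM per kb of the subunit A genes, Vha68-1 made up 4.25 ± 0.318% in cdk8K185 larvae and 6.76 ± 0.281% in w1118 larvae. The single subunit B gene, Vha55, gave 876, 667 and 689 CPM in cdk8K185 libraries and 589, 641 and 586 CPM in w1118 libraries. These libraries did not overlap either, but the difference missed the threshold (log2 fold change 0.30, SE 0.14, adjusted p = 0.124).

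VhaSFD (2L:16722883-16727826, minus strand, 7 exon blocks) encodes subunit H, which holds the head to the membrane sector and restrains ATP hydrolysis by free V1. It gave 447, 356 and 369 CPM in cdk8K185 libraries and 276, 313 and 312 CPM in w1118 libraries. No mutant library reached down to a control library, with means of 391 ± 49.4 CPM and 300.3 ± 21.3 CPM (log2 fold change 0.38, SE 0.12, adjusted p = 0.0489). The stalk subunits differed by less than the spread between libraries. Subunits D and F form the central stalk that turns, and the log2 fold changes of Vha36-1 (D) and Vha14-1 (F) were 0.02 (SE 0.14, adjusted p = 0.922) and 0.03 (SE 0.18, adjusted p = 0.89). Subunits E and G form the outer stalks that hold the head still, and those of Vha26 (E) and Vha13 (G) were 0.06 (SE 0.11, adjusted p = 0.67) and 0.01 (SE 0.15, adjusted p = 0.961). Under other scalings or with a library left out, each of these 4 small values changed sign.

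**Figure D2:**
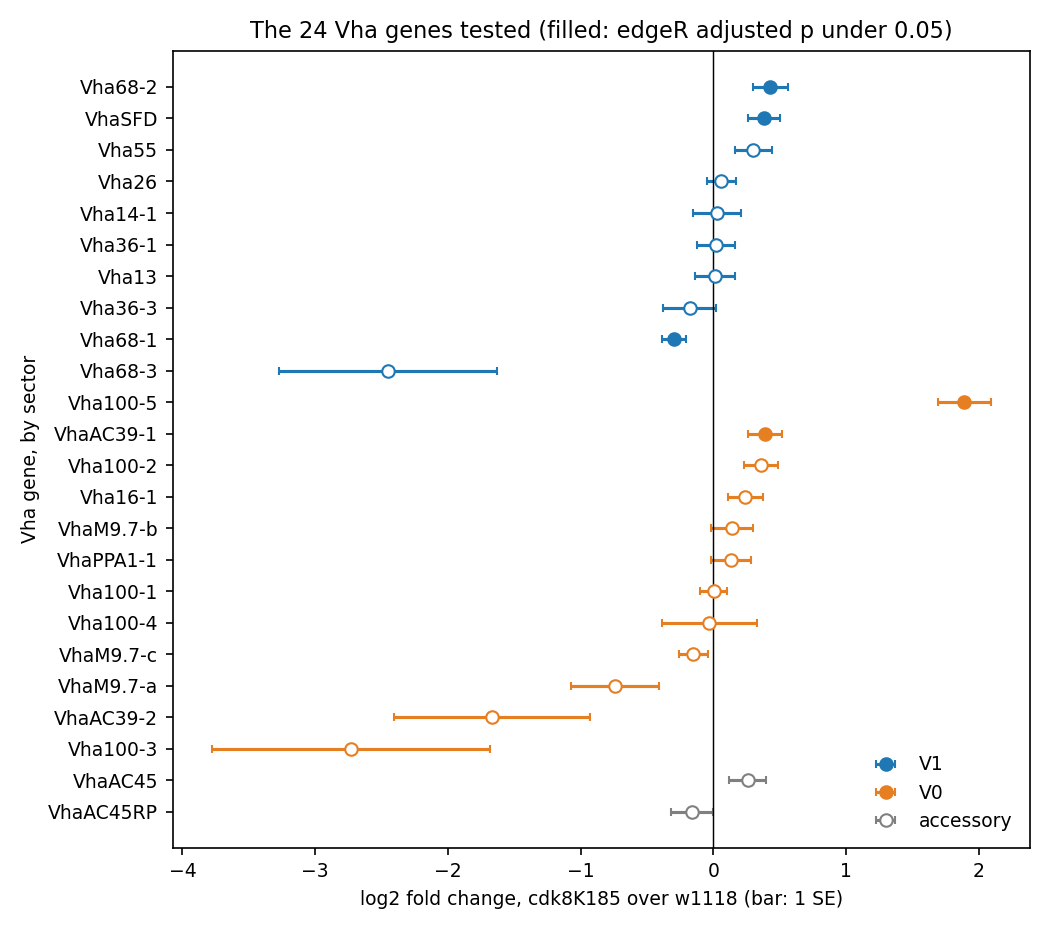
Log2 fold change of cdk8K185 over w1118 for each tested member, with its standard error, by sector, with called genes filled. Vha100-5 lies at 1.89, the other abundant members lie between -0.30 and 0.43, and the members under 10 CPM lie at or below -0.18 with wide errors.

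The largest change among the called members was in the V0 sector. Subunit a is the fixed arm of V0 that carries the proton channels, and its paralogs are known to send the pump to different membranes. Vha100-5 (FBgn0032373, 2L:11738948-11744524, plus strand, 4 exon blocks) gave 301, 256 and 242 CPM in cdk8K185 libraries and 53.1, 74.6 and 88.7 CPM in w1118 libraries. The lowest mutant library was above the highest control library, and the means were 267 ± 30.6 CPM and 72.2 ± 17.9 CPM, a 3.7-fold difference (log2 fold change 1.89, SE 0.20, adjusted p = 0.000604). The call held in 13 of 13 alternative analyses, with log2 fold changes of 1.71 to 2.11 and a highest adjusted p of 0.00431. Of all 10632 genes tested, 392 had a log2 fold change at least as high, and among the 1715 with a mean of at least 100 CPM, 57 did. An antisense RNA gene, asRNA:CR44144, overlaps 527 bp of its exons (18.1%), and was listed at 0 counts in every library. The strand setting of the counting is not given in the sources used here, so reads of the antisense RNA within that overlap cannot be told apart from those of Vha100-5.

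None of the other subunit a genes was called by edgeR with TMM. Vha100-3, described with the low-level members, was called lower by DESeq2, and Vha100-2 was called higher with library totals. Vha100-2 gave 417, 312 and 359.7 CPM in cdk8K185 libraries and 262, 305 and 283 CPM in w1118 libraries. Its libraries did not overlap, but the difference missed the threshold (log2 fold change 0.36, SE 0.13, adjusted p = 0.0725). Vha100-1, known in flies for its role in neurons and at synaptic vesicles, gave 174, 149.8 and 174 CPM in cdk8K185 libraries and 172, 162 and 164 CPM in w1118 libraries. It had the smallest difference of the abundant members, with means of 166 ± 14.2 CPM and 166 ± 5.54 CPM (log2 fold change 0.0025, SE 0.10, adjusted p = 0.986). Vha100-4, known for its place in the acid-secreting part of the midgut, gave 35.0, 19.6 and 15.6 CPM in cdk8K185 libraries and 15.6, 28.6 and 27.8 CPM in w1118 libraries. The libraries of the genotypes overlapped widely (log2 fold change -0.03, SE 0.36, adjusted p = 0.949).

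As a share of the summed CPM per kb of the 5 subunit a genes, Vha100-5 made up 34.6%, 36.9% and 32.8% in cdk8K185 libraries and 11.4%, 14.0% and 17.0% in w1118 libraries. The share of Vha100-2 was 42.7 ± 1.76% in cdk8K185 larvae and 50.8 ± 1.45% in w1118 larvae, and that of Vha100-1 was 19.3 ± 1.58% and 29.3 ± 3.18%. The subunit a genes together summed to 299, 238 and 253 CPM per kb in cdk8K185 libraries and 159, 182 and 178 CPM per kb in w1118 libraries. Every mutant library was above every control library in this sum. Shares within a subunit are a description and were not tested. Subunits with several genes were otherwise led by a single gene in both genotypes, with 99.9% and 98.9% of subunit c from Vha16-1 in cdk8K185 and w1118 larvae, and 83.8% and 79.6% of subunit e from VhaM9.7-b.

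**Figure D3:**
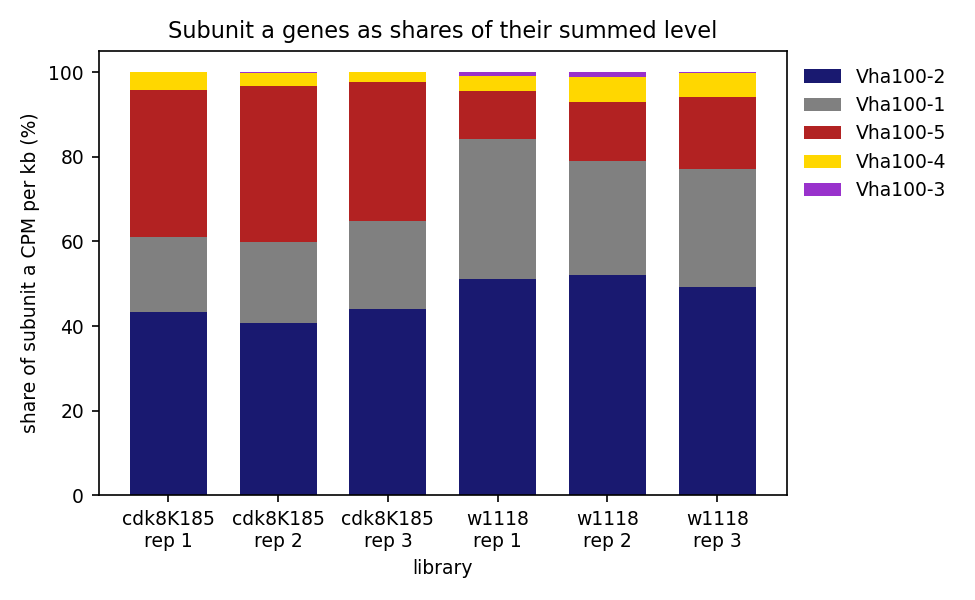
Share of each Vha100 paralog in the summed CPM per kb of the subunit a genes, in percent, for every library, cdk8K185 left of w1118. Vha100-5 takes 32.8% to 36.9% in cdk8K185 libraries and 11.4% to 17.0% in w1118 libraries.

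Because subunit a paralogs are used in particular tissues, markers of pump-rich tissues were read beside these values. Shares called are read against 36.9% of all genes tested, 19.9% higher and 17.0% lower. Of 6 Malpighian tubule markers, 2 were called higher and 1 lower in cdk8K185 larvae by edgeR (50.0%), while DESeq2 called Uro alone. Uro, which encodes urate oxidase of the tubule, gave 271, 158 and 267 CPM in cdk8K185 libraries and 3.88, 18.4 and 15.4 CPM in w1118 libraries (log2 fold change 4.21, SE 0.55, adjusted p = 0.00201). The receptor gene CapaR had a log2 fold change of 0.88 (adjusted p = 0.0404 by edgeR and 0.0747 by DESeq2), and the kinin receptor gene Lkr one of -0.56 (adjusted p = 0.033 and 0.0745). The markers summed to 244 to 359.7 CPM in cdk8K185 libraries and 90.0 to 119.6 CPM in w1118 libraries, and without Uro to 81.3 to 92.4 CPM and 86.1 to 101 CPM. Of 3 copper cell markers, dve was called higher (33.3%, log2 fold change 0.59, adjusted p = 0.00227), and Ptx1 had a log2 fold change of -0.02. The defining gene lab lay at 1.98 to 3.29 CPM in cdk8K185 libraries and 1.94 to 3.57 CPM in w1118 libraries, and the summed markers lay at 62.3 to 67.9 CPM and 48.6 to 54.3 CPM. Of 8 neuron and synapse markers, 3 were called higher and 1 lower (50.0%), and their sum ran from 456 to 486 CPM in cdk8K185 libraries and from 518 to 567 CPM in w1118 libraries. The sodium channel gene para, with the highest log2 fold change of these, averaged 14.5 CPM in cdk8K185 larvae and 4.97 CPM in w1118 larvae, and Syt1, with the lowest, 124 CPM in cdk8K185 larvae and 262 CPM in w1118 larvae. The part of these tissues in the levels of the pump genes was not tested.

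Genes for the other V0 subunits had log2 fold changes between -0.15 and 0.39 where abundant. VhaAC39-1 (X:3880748-3882967, plus strand, 3 exon blocks) encodes subunit d, which joins the ring to the central stalk. It gave 347, 293 and 288 CPM in cdk8K185 libraries and 208, 246 and 254 CPM in w1118 libraries. All mutant libraries lay above all control libraries, with means of 309 ± 33.1 CPM and 236 ± 24.7 CPM (log2 fold change 0.39, SE 0.13, adjusted p = 0.0468). Vha16-1, the most abundant member, gave 1952, 1705 and 1649.7 CPM in cdk8K185 libraries and 1435, 1455 and 1613 CPM in w1118 libraries. The libraries did not overlap, but the difference missed the threshold (log2 fold change 0.24, SE 0.13, adjusted p = 0.176). VhaPPA1-1, for the single c'' proteolipid of the ring, gave 284 to 354 CPM in cdk8K185 libraries and 240 to 332 CPM in w1118 libraries (log2 fold change 0.13, adjusted p = 0.501). Of the small membrane subunit e, VhaM9.7-b had a log2 fold change of 0.14 (adjusted p = 0.526) and VhaM9.7-c one of -0.15 (adjusted p = 0.289).

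Ac45 is a glycosylated accessory protein that helps the pump assemble and reach its membrane. VhaAC45 gave 569.8, 426 and 475 CPM in cdk8K185 libraries and 362, 441 and 426 CPM in w1118 libraries, and the genotypes overlapped (log2 fold change 0.26, SE 0.14, adjusted p = 0.191). Its relative VhaAC45RP had 8.62 to 11.2 CPM in cdk8K185 libraries and 9.74 to 12.5 CPM in w1118 libraries (log2 fold change -0.16, adjusted p = 0.445). ATP6AP2, a further accessory subunit whose symbol does not begin with Vha, gave 440.1, 368 and 386 CPM in cdk8K185 libraries and 273, 332 and 364 CPM in w1118 libraries (log2 fold change 0.30, adjusted p = 0.125).

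Taken by sector, 7 of 8 abundant V1 genes, 7 of 9 abundant V0 genes and 1 of 2 accessory genes had a log2 fold change above 0. This tally moved with the setting. Of the 18 abundant members other than Vha100-5, 14 were above 0 in the main fit and 10 with RLE factors. The number ran from 9 without cdk8K185 replicate 1 to 17 with library totals. The median over the 19 abundant members was 0.13, and without Vha100-5 it was 0.10, beside 0.02 over all genes tested. For 8 of the 19 there was no overlap between genotypes (42.1%, against 53.6% of all genes tested), with 7 above in every cdk8K185 library (29.2% of all genes tested) and 1 below (24.4%). Summed over all members, the pump genes gave 8019, 6561 and 6758 CPM in cdk8K185 libraries and 5468, 6055 and 6303 CPM in w1118 libraries. The means of these sums were 7113 ± 791 CPM and 5942 ± 429 CPM, a ratio of 1.20, and without Vha100-5 the ratio was 1.17. By sector, the ratio of cdk8K185 to w1118 was 1.16 for V1, 1.23 for V0 and 1.19 for the accessory genes. Without Vha100-5 the V0 ratio was 1.17, close to that of V1.

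A pair of libraries stood at the ends of the range for most of these genes. Among the 19 abundant members, cdk8K185 replicate 1 was the highest of the mutant libraries in 17 and the highest of all 6 in 14. The w1118 replicate 1 library was the lowest of the controls in 15 and the lowest of all 6 in 13. Without cdk8K185 replicate 1, calls among the members were Vha100-5 higher and Vha68-1 and Vha16-3 lower, and the median of the 18 abundant members other than Vha100-5 was 0.01. Without w1118 replicate 1, Vha100-5 alone was called and that median was 0.02. With any one library left out, Vha68-2 kept its call in 1 of 6 fits, as did Vha68-1, while VhaSFD and VhaAC39-1 kept it in 0 of 6, with adjusted p up to 0.153.

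The remaining 13 members, each under 10 CPM, had a lower mean in cdk8K185 larvae in 12 cases. This tally is a description, since no share over all genes of such levels was taken. It includes Vha16-4, at means of 0.0608 CPM in cdk8K185 larvae and 0.0674 CPM in w1118 larvae. Fly expression atlases place several such minor pump paralogs mainly in the testis. Together they summed to 12.6, 13.1 and 9.8 CPM in cdk8K185 libraries and 27.7, 46.1 and 16.3 CPM in w1118 libraries. Of the 13, 5 passed the filter on low counts and 0 were called by edgeR or limma-voom, with 2 at an unadjusted p under 0.05. DESeq2 called 4 of the 13 lower, beside 2324 lower of the 15022 genes it tested. Passing the filter rested mainly on the w1118 libraries for Vha68-3, Vha100-3 and VhaAC39-2, so their direction is no support.

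Raw counts of these members are given, since several lay at or near 0. Vha68-3, a further subunit A gene, had 13, 22 and 3 counts in cdk8K185 libraries and 59, 115 and 19 counts in w1118 libraries (log2 fold change -2.45, SE 0.82, adjusted p = 0.0557). Vha100-3, of subunit a, had 5, 14 and 0 counts in cdk8K185 libraries and 44, 65 and 10 counts in w1118 libraries (log2 fold change -2.73, SE 1.05, adjusted p = 0.0829). VhaAC39-2, of subunit d, had 16, 4 and 7 counts in cdk8K185 libraries and 27, 44 and 6 counts in w1118 libraries (log2 fold change -1.67, SE 0.74, adjusted p = 0.115). In each of these genes the genotypes overlapped, with w1118 replicate 3 far below the other controls. VhaM9.7-a, of subunit e, had 14, 20 and 23 counts in cdk8K185 libraries and 31, 33 and 22 counts in w1118 libraries (log2 fold change -0.74, adjusted p = 0.117). Vha36-3, of subunit D, lay at 4.99 to 7.01 CPM in cdk8K185 libraries and 6.05 to 8.18 CPM in w1118 libraries (log2 fold change -0.18, adjusted p = 0.496).

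The other 8 did not pass the edgeR filter and were not tested by it. Vha16-5, of subunit c, had 4, 3 and 0 counts in cdk8K185 libraries and 18, 39 and 4 counts in w1118 libraries. Vha16-3, of the same subunit, had 3, 1 and 0 counts in cdk8K185 libraries and 13, 26 and 6 counts in w1118 libraries. Vha14-2, of subunit F, had 2, 6 and 1 counts in cdk8K185 libraries and 15, 31 and 3 counts in w1118 libraries. In these genes w1118 replicate 2 had the most counts. Vha36-2, of subunit D, had 2, 7 and 1 counts in cdk8K185 libraries and 7, 19 and 1 counts in w1118 libraries. VhaPPA1-2, of subunit c'', had 3, 2 and 0 counts in cdk8K185 libraries and 7, 13 and 3 counts in w1118 libraries. VhaM9.7-d, of subunit e, had 3, 3 and 1 counts in cdk8K185 libraries and 7, 9 and 0 counts in w1118 libraries. No fold change is given for counts this low. Vha16-4 had at most 1 count in any library, and Vha16-2 was at 0 in every library. Over the 13 members under 10 CPM, w1118 replicate 2 was the highest control in 10 and w1118 replicate 3 the lowest control in 11, and 10 members had at most 3 counts in cdk8K185 replicate 3. An antisense RNA gene, asRNA:CR46049, covers 84.5% of the exons of Vha16-2.

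**Figure D4:**
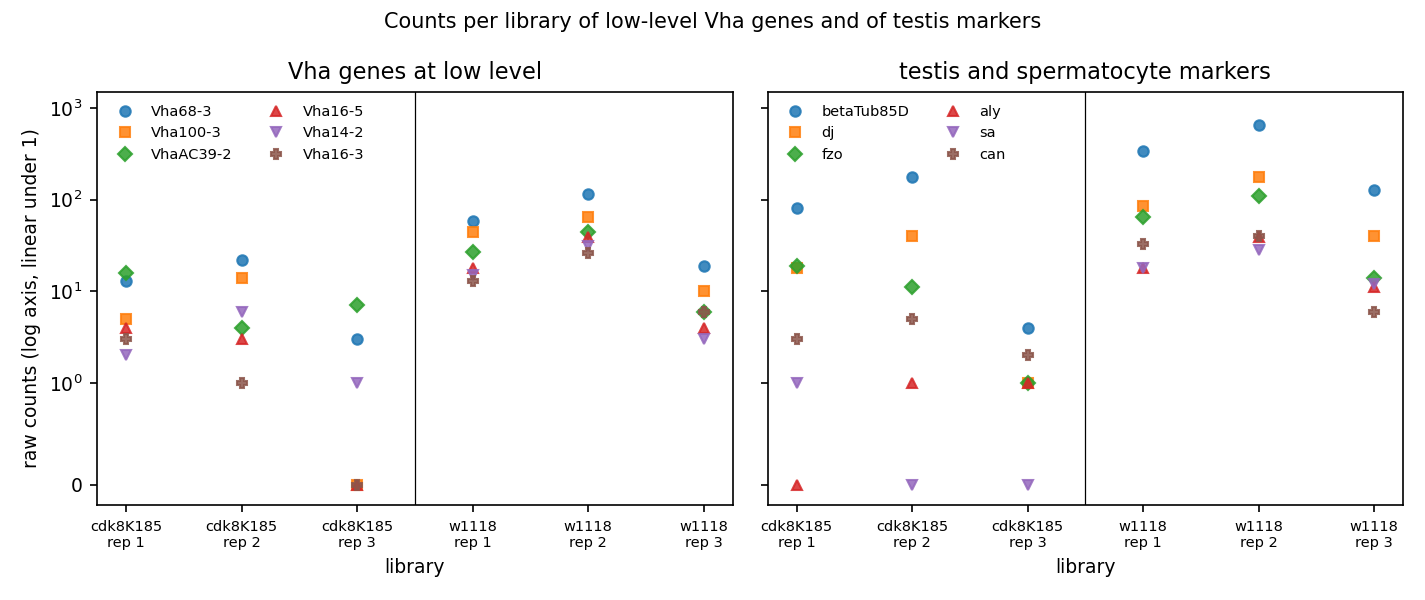
Raw counts in every library, cdk8K185 left of w1118, of 6 members under 10 CPM (left) and of 6 testis and spermatocyte markers (right), on an axis that is logarithmic above 1 and linear below. In each of the 12 genes w1118 replicate 2 has the most counts, such as 115 for Vha68-3 and 649 for betaTub85D. The 12 are a selection. Among genes not shown, Vha36-3 has its most counts in cdk8K185 replicate 1, and mia and topi theirs in cdk8K185 replicate 3.

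Markers of the testis were read in the same libraries. The 13 spermatocyte and testis markers summed to 49.2, 72.6 and 36.4 CPM in cdk8K185 libraries and 107, 177 and 56.0 CPM in w1118 libraries. Of 9 tested by edgeR, 1 was called higher and 2 lower (33.3%, against 36.9% of all genes tested). DESeq2, with its own filter, called 8 of the list, beside 4172 of the 15022 genes it tested. The testis tubulin gene betaTub85D had 82, 175 and 4 counts in cdk8K185 libraries and 342, 649 and 129 counts in w1118 libraries, and dj, of late spermatogenesis, had 18, 40 and 1 counts against 85, 175 and 40 counts in w1118 libraries. The spermatocyte transcription regulator sa had 1, 0 and 0 counts in cdk8K185 libraries and 18, 28 and 12 counts in w1118 libraries, and aly had 0, 1 and 1 counts against 18, 39 and 11 counts in w1118 libraries. These were the 2 markers called lower by edgeR. They passed its filter through the w1118 libraries, so their direction is no support. Markers with a higher mean in cdk8K185 larvae were mia, at 92, 105 and 113 counts in cdk8K185 libraries and 42, 63 and 39 counts in w1118 libraries (log2 fold change 0.94, adjusted p = 0.0152), and topi, at a log2 fold change of 0.66 (adjusted p = 0.103). The RNA lncRNA:roX1, made in males, gave 755, 945 and 252 CPM in cdk8K185 libraries and 202, 427 and 451 CPM in w1118 libraries (log2 fold change 0.85, adjusted p = 0.235). Its lowest mutant library was cdk8K185 replicate 3 and its lowest control library was w1118 replicate 1. The part of male or testis tissue in the low-level members was not tested. Without w1118 replicate 3, 6 of 27 members tested were called lower, namely Vha14-2, Vha16-5, Vha68-3, VhaAC39-2, Vha100-3 and Vha16-3, beside 1884 of 11030 genes. The library left out was the lowest control for each of these 6. They passed the filter mainly through the other w1118 libraries, so their direction is no support.

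Several paralogs lie side by side with unlike levels. Vha68-2 and Vha68-3 are 178 bp apart on 2L on the same strand and averaged 660 and 3.76 CPM over all libraries. Vha100-4 and Vha100-2 are 517 bp apart on 3R and averaged 23.7 and 323 CPM. VhaPPA1-2 and VhaPPA1-1 are 2052 bp apart on 3R and averaged 0.454 and 302 CPM. How reads matching more than 1 paralog were counted is not given in the sources used here, so levels of the minor genes may hold reads of their relatives or lack their own.

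With TMM scaling, none of the genes that assemble and regulate the pump was called. These were Rbcn-3A and Rbcn-3B of the rabconnectin complex, mtd, the Rag GTPases and TOR kinase genes that sense nutrients at the lysosome, and Mitf, a transcription factor known in flies to activate pump genes. Of 8 tested, 0 were called by edgeR, DESeq2 or limma-voom, with 0 at an unadjusted p under 0.05, and log2 fold changes ran from -0.04 to 0.16 (median 0.09). Mitf gave 101, 104 and 88.9 CPM in cdk8K185 libraries and 91.4, 82.7 and 89.1 CPM in w1118 libraries (log2 fold change 0.16, SE 0.10, adjusted p = 0.227). With library totals 3 of the 8 were called, beside 4655 of all 10632 genes tested.

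Lysosomal genes, whose products work in the compartment that the pump acidifies, were mostly lower. Of 15 tested, 9 were called lower and 1 higher (66.7%, against 36.9% of all genes tested), with a median log2 fold change of -0.49 beside 0.02 over all genes. Cln7, a lysosomal membrane protein whose human counterpart is mutated in a childhood neurodegeneration, gave 31.9, 26.3 and 30.4 CPM in cdk8K185 libraries and 90.1, 63.4 and 83.2 CPM in w1118 libraries (log2 fold change -1.42, SE 0.15, adjusted p = 0.000633). Cln3, of the same disease group in humans, had a log2 fold change of -1.37 (SE 0.20, adjusted p = 0.0023). The protease genes cathD and CtsB had log2 fold changes of -0.71 and -0.69, and Lamp1, of the lysosomal membrane, one of -0.70 (adjusted p up to 0.00375 among these). The exception was spin, a lysosomal membrane transporter, at 0.66 (adjusted p = 0.00231). Trpml was listed at 0 in every library. With library totals 6 of the 15 were called, beside 4655 of all 10632 genes tested. That share was not above the share of all genes.

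Of 22 genes for transporters and enzymes that work beside the pump in epithelia, 7 were called higher and 3 lower (45.5%, against 36.9% of all genes tested), with a median of 0.23. Nha2, a sodium/proton exchanger, gave 44.4, 29.5 and 35.0 CPM in cdk8K185 libraries and 4.54, 10.4 and 11.2 CPM in w1118 libraries (log2 fold change 2.06, SE 0.33, adjusted p = 0.00401). SecCl, a chloride channel known in the tubule, gave 93.2, 78.5 and 78.7 CPM in cdk8K185 libraries and 21.9, 22.2 and 26.2 CPM in w1118 libraries (log2 fold change 1.83, SE 0.12, adjusted p = 8.79e-05). Like Vha100-5, both had every mutant library above every control library. The same held for other genes of this list and for 29.2% of all genes tested. The carbonic anhydrase genes CAH1, CAH2 and CAHbeta, whose enzymes make protons and bicarbonate from CO2, were called higher by 0.55 to 0.88 on the log2 scale. Among the genes lower in cdk8K185 larvae, the aquaporin gene Prip had a log2 fold change of -1.73 (SE 0.19, adjusted p = 0.000688) and the related Drip one of -0.43 (adjusted p = 0.00615).

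**Figure D5:**
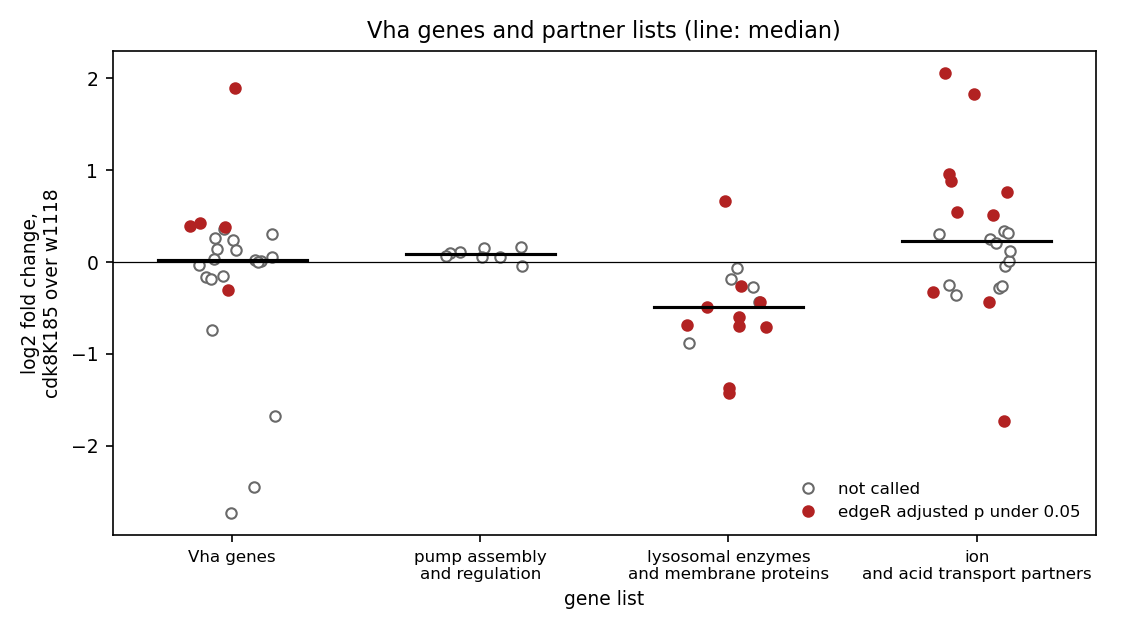
Log2 fold change of cdk8K185 over w1118 for each tested gene of the pump and of the partner lists, with called genes filled, a line at each median and no meaning to the sideways spread. Genes of pump assembly and regulation lie between -0.04 and 0.16, lysosomal genes between -1.42 and 0.66, and transport partners between -1.73 and 2.06.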

How the data were processed

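Per the labels, total RNA of 10 whole wandering larvae per pool was isolated with TRIzol and a column kit, then made into Illumina libraries. The authors deposited raw whole-number counts per gene for 6 libraries. The submitters' processing notes name STAR, featureCounts, DESeq2 and dm6. Versions, annotation release, strand setting and the treatment of reads with several matches are not given in the sources used here. Of 17562 FlyBase identifiers, 17477 matched a symbol and 85 did not. Coordinates and exon lengths came from BDGP6.54 (Ensembl release 115), the assembly known as dm6.

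Counts were tested with edgeR 4.0.16 in R 4.3.3 (filterByExpr with a minimum count of 10 and a minimum total of 15, TMM, glmQLFit with robust estimation and glmQLFTest, two-sided, genotype as the sole term). Standard errors were derived from F, as the size of the log2 fold change over its square root. Values are mean ± SD over 3 libraries. The members and the lists of partner and marker genes were chosen with earlier results of these data known. Genes named were all members, Cdk8, Mitf, the partner genes with the largest changes and the markers with the highest and lowest log2 fold change of each list, and I-2, ATP6AP2, CapaR, lab, betaTub85D, dj, aly, topi, asRNA genes, lncRNA:roX1, spin, Lamp1, cathD, CtsB, the CAH genes and Drip were named after their values were seen.

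Alternatives were DESeq2 1.42.0, limma-voom (limma 3.58.1), RLE factors, library totals, other filters on low counts, the replicate number as a block, a threshold of 0.01 and leaving out each library. No replicate pair was alike within sampling noise (chi-square per degree of freedom of 19 or more). Floors of 3 counts cover counting error only. No sequences were printed. Figures were drawn with matplotlib 3.10.9.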

Additional observations from a re-analysis of the deposited data

How the results depend on the processing

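The number of genes called ran from 2746 to 3844 with 1 library left out and was 2111 at an adjusted p under 0.01. It was 4172 of 15022 with DESeq2, and 3899 and 4655 of 10632 with RLE factors and library totals. Among the Vha members, the calls numbered 8 with DESeq2 (4 lower), 2 with RLE factors (1 higher), 8 with library totals (8 higher, 0 lower), and 1 at an adjusted p under 0.01 (1 higher, 0 lower). With at least 10 counts required in every library 2 were higher and 2 lower, beside 3495 of 9248 genes called. With at least 1 count in some library 3 were higher and 2 lower, beside 3993 of 15022 genes called. With 1 library left out, 1 to 7 members were called, 1 to 2 of them higher and 0 to 6 lower. Without cdk8K185 replicate 3, w1118 replicate 1 or w1118 replicate 2, the call left was Vha100-5. The cause of these shifts was not tested. With library totals, 3 genes of pump assembly and regulation and 6 lysosomal genes were called.

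With the replicate number as a block, 3 members were called, Vha100-5 higher (1) and Vha68-3 and Vha100-3 lower (2). This stood beside 3988 of 10632 genes called. Vha68-3 and Vha100-3 passed the filter mainly through the w1118 libraries, so their direction is no support. Deviations of same-numbered libraries correlated at -0.195, 0.508 and 0.562 for replicates 1, 2 and 3. Between replicate 2 of a genotype and replicate 3 of the other they correlated at -0.587 and -0.606. Deviations were taken from the mean of each genotype, so these correlations depend on one another. What libraries of equal number share is not given, and the main fit left the number out.

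Signs changed for members near 0. Vha13 was at -0.02 with DESeq2, -0.03 with RLE factors, -0.02 with the filter of 10 counts in every library, and -0.11 to 0.10 with 1 library left out. Vha36-1 was at -0.01, -0.02 and -0.01 in the same settings and at -0.10 to 0.14 with 1 left out. Vha100-1 was at -0.03, -0.04 and -0.03, at -0.0017 with limma-voom, at -0.00067 with the block and at -0.04 to 0.08 with 1 left out. Vha14-1 was at -0.0034 with RLE factors and at -0.12 to 0.24 with 1 left out, and Vha26 at -0.01 to 0.13. With library totals Vha100-4 was at 0.17, VhaM9.7-c at 0.07, VhaAC45RP at 0.06 and Vha36-3 at 0.03, and with 1 left out Vha100-4 ran from -0.45 to 0.22. Depth limits the 8 members under the edgeR filter, of which Vha16-5, Vha16-3 and Vha14-2 were called lower in some of the fits that kept them. Most counts of these genes lay in w1118 libraries, so that direction is no support.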
